A study of Mus musculus with 7 samples.

Results

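The RLTR repeats outside the RLTR4, RLTR6, RLTR10 and RLTRETN name groups were followed in whole fetal testes of wild-type (WT) and Glis3 mutant mouse embryos. They were taken as every RepeatMasker row of the count table whose element name starts with RLTR, without names that start with RLTR4, RLTR6, RLTR10 or RLTRETN. This gave 153323 loci of 3494995 LINE, SINE and LTR loci in the table, under 142 of 875 element names. All rows named RLTR came to 182720, so 29397 were left out, and 14284 of these carry the numbers RLTR40 to RLTR49, which also begin with RLTR4. The 142 names fall into 31 number series and hold 138 LTR names (147796 loci) and 4 internal names ending in -int (5527 loci). RNA-Seq was run on rRNA-depleted RNA from 1 pair of testes per embryo at E14.5, on a C57BL/6 background, from 3 WT embryos and 4 homozygous Glis3 zf5/zf5 embryos (n = 3 and n = 4). The zf5 allele is a global null allele of the zinc finger factor GLIS3, with exon 4 and the DNA binding of the protein disrupted in every cell type.

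RLTR elements are the long terminal repeats of mouse endogenous retroviruses. An LTR carries the promoter and the polyadenylation signal of the provirus, while the internal part encodes the viral proteins; most copies in the genome are solitary LTRs that recombination left behind. In germ cells and embryos such copies are silenced by KRAB zinc finger proteins with TRIM28 and SETDB1, by DNA methylation and by the piRNA pathway, and some copies serve as promoters of nearby transcripts.

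A total of 51204 RLTR loci had a read in at least 1 library, and 12176 averaged 1 read or more over the libraries and were tested. Each library held 3454317 to 4670830 reads in LINE, SINE and LTR loci, and 103113 to 137107 of them lay in the RLTR loci. The RLTR share was 2.72% in the lowest library (95% Wilson interval 2.71% to 2.74%, for counting error only) and 2.99% in the highest. Glis3 itself was at 7.63, 6.89 and 2.91 FPKM in the libraries labelled WT 1, 2 and 3 and at 3.86, 3.26, 2.90 and 2.66 FPKM in mutant 1 to 4, so that the library labelled WT 3 lay within the mutant range. These FPKM cover the whole gene, of which the allele lacks exon 4. Summed germ cell markers (Ddx4, Dazl, Dppa3, Pou5f1 and Sall4) reached from 521 to 1205 FPKM in WT and from 428 to 557 FPKM in mutant libraries, again with the library labelled WT 3, at 521 FPKM, within the mutant range. Their part in the results was not tested. In whole testes, fewer cells of a type and less RNA per cell cannot be told apart. These and the following marker sums overlapped between the groups: Sertoli cells 207 to 314 and 266 to 336 FPKM, fetal Leydig cells 1596 to 2658 and 2498 to 3073, endothelium 71.4 to 87.1 and 73.4 to 81.7, blood 1844 to 4542 and 1083 to 3435, skeletal muscle 3.34 to 13.8 and 2.80 to 23.2, adrenal cortex 25.7 to 32.8 and 32.2 to 42.3, and mesonephric tubules 2.47 to 4.54 and 1.73 to 2.51 FPKM in WT and mutant libraries. Macrophage markers were at 11.0 to 11.6 FPKM in WT and at 11.6 to 13.4 FPKM in mutant libraries, without overlap. For germ cells, the authors counted TRA98-positive cells per testis area at this stage and reported no difference between genotypes. Their discussion, however, places the first germ cell loss at E14.5.

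Sequence is shown for RLTR loci that hold a gene start in the RefSeq annotation and that passed the test of single loci described below. There the LTR bases themselves lie around a transcript's first base. RefSeq promoter windows (250 bases before to 50 after a start, GRCm38.p6) had their start inside an RLTR locus in 203 of 32851 windows, for 190 genes and 188 loci. Of these loci 53 were tested, and 3 were past the threshold (edgeR adjusted p under 0.1), all lower in mutant testes (0.0628% of all tested loci were called lower). A closer background is the tested repeat loci of any kind that hold a GENCODE transcript start. Of these, 13 of 3000 were called in either direction (0.433%), and of the RLTR loci among them 2 of 136. The groups overlap at Gm33301 and Gm40003, where the library labelled WT 3 lay within the mutant range. With 1 library left out the call held in 5 of 7 fits at Gm33301, 3 of 7 at Gm13110 and 2 of 7 at Gm40003. The 3 loci are the starts of Gm13110 (RLTR16B_MM, window chr4:154655693-154655992, minus strand, all 300 bases in the LTR), Gm33301 (RLTR17, window chr15:40162357-40162656, plus strand, 235 bases in the LTR) and Gm40003 (RLTR34B_MM, window chr2:170673789-170674088, minus strand, 169 bases in the LTR). In GENCODE M21, by which loci are placed below, the Gm33301 locus also holds a start. The loci at Gm13110 and Gm40003 hold none there and count as intergenic. The windows are printed 5′ to 3′ on the gene's strand, with the bases inside the LTR in capitals.
Gm13110 promoter: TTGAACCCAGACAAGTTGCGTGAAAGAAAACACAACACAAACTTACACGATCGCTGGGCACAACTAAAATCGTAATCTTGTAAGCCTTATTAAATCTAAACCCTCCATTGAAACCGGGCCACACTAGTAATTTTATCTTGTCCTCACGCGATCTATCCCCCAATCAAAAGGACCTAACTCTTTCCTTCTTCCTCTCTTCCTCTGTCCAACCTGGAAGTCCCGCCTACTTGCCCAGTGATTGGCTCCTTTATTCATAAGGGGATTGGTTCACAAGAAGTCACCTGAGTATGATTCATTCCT
Gm33301 promoter: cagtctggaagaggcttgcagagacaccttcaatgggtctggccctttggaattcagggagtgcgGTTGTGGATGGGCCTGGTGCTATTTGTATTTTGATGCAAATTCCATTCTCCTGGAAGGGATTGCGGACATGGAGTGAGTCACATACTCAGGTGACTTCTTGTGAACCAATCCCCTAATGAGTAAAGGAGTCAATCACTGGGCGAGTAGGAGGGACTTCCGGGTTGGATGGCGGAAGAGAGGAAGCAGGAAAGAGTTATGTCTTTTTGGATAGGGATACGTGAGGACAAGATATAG
Gm40003 promoter: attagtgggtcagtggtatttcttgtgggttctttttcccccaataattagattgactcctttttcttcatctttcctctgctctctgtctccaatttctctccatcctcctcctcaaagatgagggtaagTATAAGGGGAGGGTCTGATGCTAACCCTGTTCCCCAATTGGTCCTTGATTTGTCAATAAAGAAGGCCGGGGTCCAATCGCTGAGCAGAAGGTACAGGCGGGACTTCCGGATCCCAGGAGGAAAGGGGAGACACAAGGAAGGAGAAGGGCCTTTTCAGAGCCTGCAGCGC
The LTR runs on the gene's own strand at Gm33301 and Gm40003 and on the opposite strand at Gm13110. The Gm13110 and Gm33301 windows share a run of 34 bases on opposite strands, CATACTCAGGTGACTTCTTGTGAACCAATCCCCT as read in the Gm33301 window, and across all RefSeq windows it was found in 3, those of these 2 genes. Each window holds CCAAT on either strand, as do 116 of the 203 windows that start in an RLTR locus (57.1%) and 37.4% of all windows. TATAAA was absent from all 3, and was found in 46 of the 203 windows (22.7%) and in 13.6% of all windows. The letters TGGGGGGT, the core that GLIS proteins are known to bind, were in none of the 3, in 3 of the 203 (1.48%) and in 1.53% of all windows.

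Reads were first summed over all loci of a name, in CPM, that is, counts scaled to the same effective number of LINE, SINE and LTR reads in each library. RLTR19 rose in mutant testes, and it was the 1 name of 831 tested names, over all repeat classes, with an adjusted p under 0.1 (0.120% of all names, and 1 of the 141 RLTR names tested). RLTR19 stood at 587, 667 and 643 CPM in WT 1 to 3 and at 813, 804, 811 and 817 CPM in mutant 1 to 4. The groups do not overlap, and the mutant libraries lay within a narrow band. The means were 632 ± 41.3 CPM (SD, n = 3) and 811 ± 5.54 CPM (SD, n = 4), a log2 fold change of 0.36 with a standard error of 0.05 and an edgeR adjusted p of 0.0221. Without the library labelled WT 3 the log2 fold change was 0.36 and the adjusted p 0.0665, whereas without mutant 1 they were 0.37 and 0.312.

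**Figure D1:**
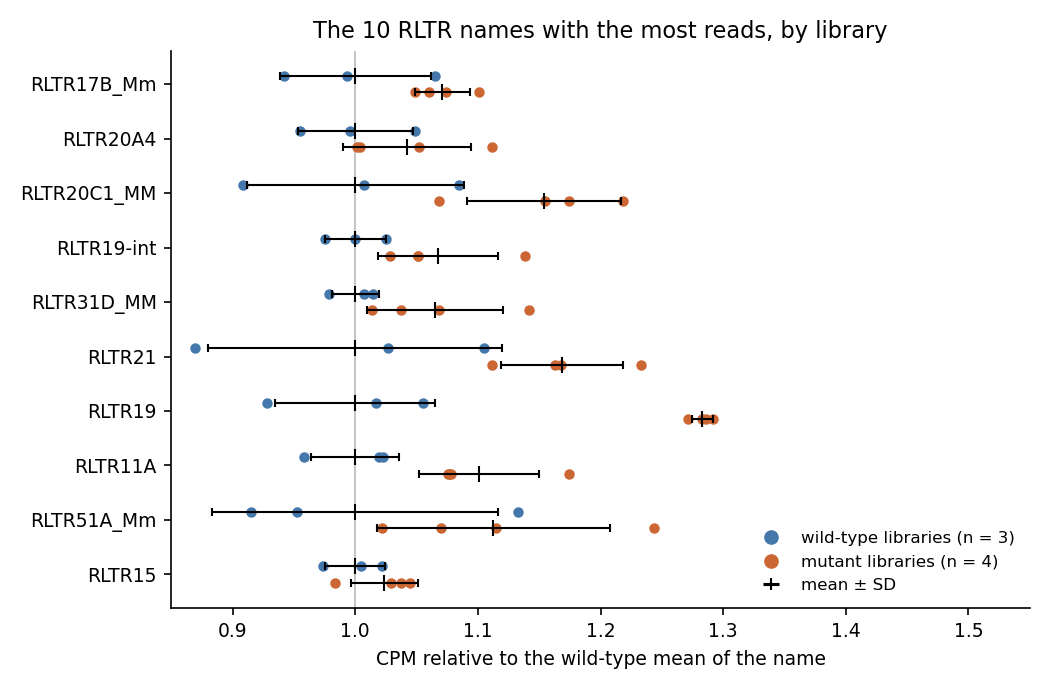
CPM of the 10 RLTR names with the most reads, divided by the WT mean of the name, for each WT (blue) and mutant (orange) library, with mean and SD as bars. RLTR19 is the name whose mutant libraries lie farthest from the WT libraries, at 804 to 817 CPM against 587 to 667 CPM.

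The remaining names with the most reads were RLTR17B_Mm, RLTR20A4, RLTR20C1_MM, RLTR19-int, RLTR31D_MM, RLTR21, RLTR11A, RLTR51A_Mm and RLTR15, which with RLTR19 held 40.7% of the RLTR reads, and none of these 9 passed the test. RLTR17B_Mm, a short LTR with 27369 copies, was highest at 3286, 3715 and 3463 CPM in WT and 3659, 3698, 3839 and 3748 CPM in mutant libraries. The groups overlap, and the log2 fold change was 0.10 ± 0.04 (SE), adjusted p = 0.294. RLTR21 stood at 697, 885 and 823 CPM in WT and at 891, 932, 936 and 988 CPM in mutant libraries, which do not overlap, and its log2 fold change was 0.23 ± 0.07 (SE), adjusted p = 0.208. RLTR20C1_MM (1184, 1414 and 1313 against 1505, 1392, 1588 and 1530 CPM) had a log2 fold change of 0.21 ± 0.06 (adjusted p = 0.208). RLTR11A (654, 698 and 695 against 735, 734, 801 and 735 CPM) differed by 0.14 ± 0.05 with an adjusted p of 0.208, also without overlap. For RLTR20A4, RLTR19-int, RLTR31D_MM, RLTR51A_Mm and RLTR15 the log2 fold changes were 0.06, 0.09, 0.09, 0.15 and 0.03, with adjusted p from 0.297 to 0.665. DESeq2 called 4 of the 141 RLTR names (2.84%), RLTR19, RLTR20C1_MM and RLTR21 among them, beside 46 of all 831 names (5.54%).

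Across the 141 tested RLTR names, 102 had a log2 fold change above 0 and 39 below it, from -0.32 (RLTR53B_Mm) to 0.45 (RLTR9A3B). Their median was 0.06, and that of all 831 names was 0.08, with 646 of the 831 above 0. The RLTR split was 74 above 0 and 65 below over loci averaging 1 read or more, and 112 and 19 over intergenic loci alone. An unadjusted p under 0.05 was reached by 14 RLTR names (9.93%, 13 of them higher in mutant testes) and by 16.1% of all names. The mutant libraries lay above every WT library for 8 RLTR names (5.67%) and for 14.6% of all names, so that this RLTR share was under the background. They lay below every WT library for 0 RLTR names and for 1 of all 831 names (0.120%), too few to compare the shares. Of the 8 names, 3 belong to RLTR11 (RLTR11A, RLTR11A2 and RLTR11B) and 2 to RLTR19 (RLTR19 and RLTR19-int), and the rest were RLTR21, RLTR5_Mm and RLTR30C_MM. RLTR17, the 1 name lower in mutant testes with an unadjusted p under 0.05 (0.0444), had a log2 fold change of -0.19.

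**Figure D2:**
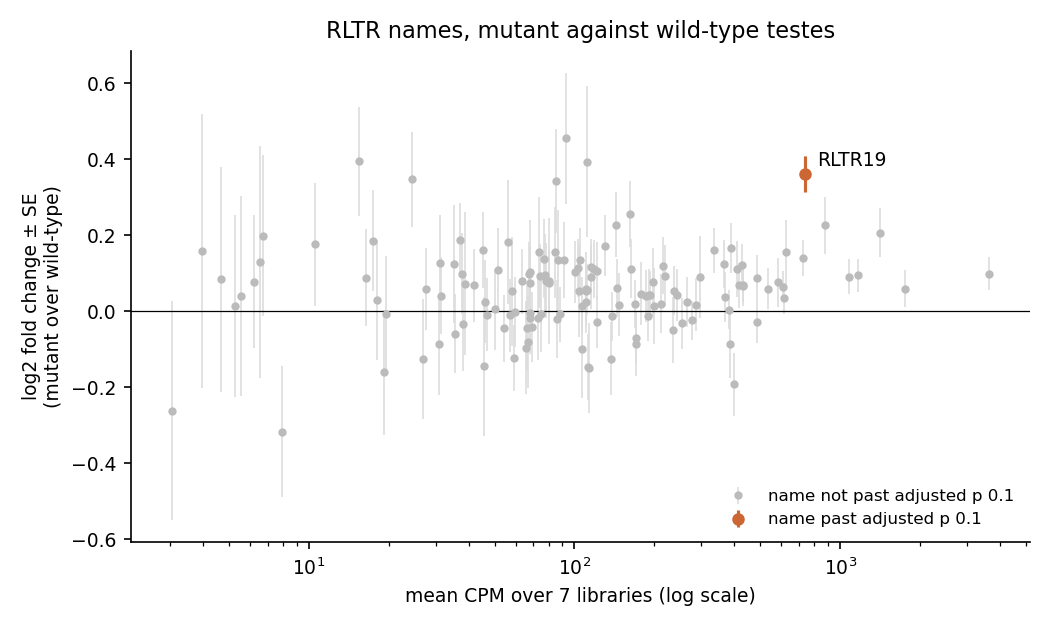
Log2 fold change (mutant over WT, with its standard error) of the 141 tested RLTR names against their mean CPM on a log scale. RLTR19, at 0.36, is the name past an adjusted p of 0.1, and the names with few reads scatter over -0.32 to 0.45 with wide errors.

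Larger number series spread around these medians. In RLTR20 (16 names, 28542 loci), 11 names were higher in mutant testes, with log2 fold changes from -0.08 (RLTR20D) to 0.21 (RLTR20C1_MM) and a median of 0.06. RLTR17 (4 names, 30570 loci) ran from -0.19 (RLTR17) to 0.12 (RLTR17D_Mm). Of the 23 RLTR13 names 21 were higher, from -0.10 (RLTR13B3) to 0.39 (RLTR13A3), with a median of 0.08. RLTR9 (13 names) ran from -0.08 (RLTR9E) to 0.45 (RLTR9A3B) with 11 names higher and a median of 0.10. None of these names passed the test.

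RLTR19 reads came from a small number of places. Of its 944 loci 108 were tested, and 55.1% of its reads lay outside annotated genes, 32.0% in loci that touch an exon and 12.9% in introns. A run of 27 RLTR19 loci on chr5:25927084-26122747, of which 26 were tested, held 50.1% of the RLTR19 reads in a stretch of 196 kb. The tested loci are 14 minus-strand copies of 152 to 529 bases (median 525 bases) and 12 shorter plus-strand pieces, repeated with a median step of 16.15 kb, among genes of the Speer4a kind. The array was singled out after the values of RLTR19 were seen, so its levels are a description with no test. Its summed tested copies stood at 300.1, 308 and 300.4 CPM in WT and at 451, 431, 399.9 and 385 CPM in mutant libraries. The groups do not overlap, with means of 303 ± 4.49 and 417 ± 29.8 CPM (SD). The log2 fold change was above 0 at 24 of the 26 copies, with a median of 0.49 and a range from -0.13 to 1.31, and the mutant libraries lay above every WT library at 13 of 26, against 2.97% of all tested loci. All 14 minus-strand copies were higher, with a summed level of 204, 223 and 215 CPM in WT against 339, 314, 281 and 291 CPM in mutant libraries. The 12 plus-strand pieces summed to 96.5, 85.1 and 85.1 CPM against 111, 117, 119 and 94.3 CPM, which overlap. Copies of a tandem array are nearly identical, so how uniquely mapped reads were divided between them is uncertain, and values of single copies are less certain than their sum.

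**Figure D3:**
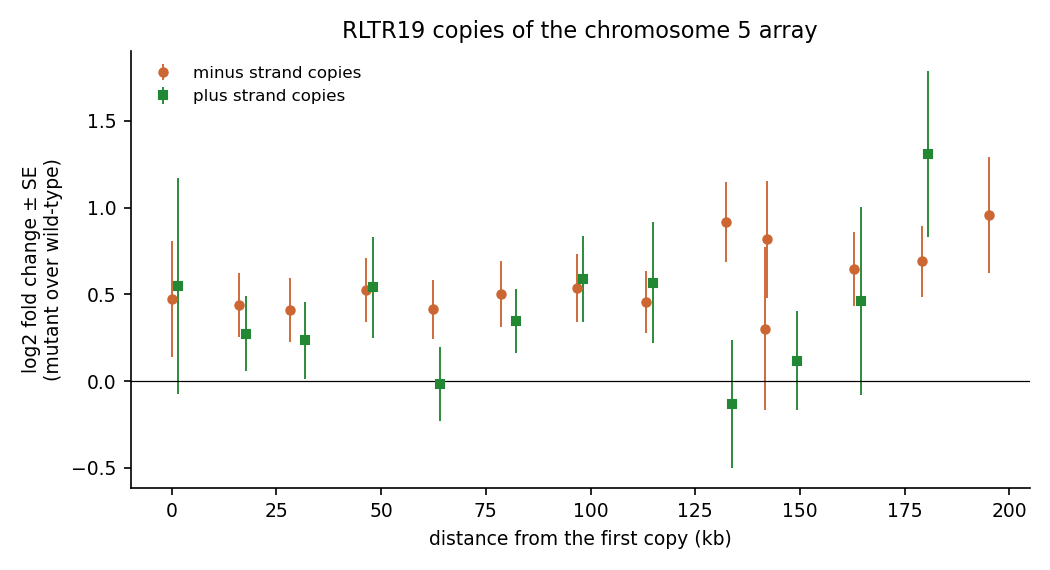
Log2 fold change with its standard error at each of the 26 tested RLTR19 copies of the chromosome 5 array, by distance from the first copy in kb (circles, minus-strand copies; squares, plus-strand pieces). The copies lie between -0.13 and 1.31 and 24 of 26 lie above 0.

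The array shared this shift with its surroundings. In the same window, 128 tested loci of other repeats had a median log2 fold change of 0.28, with 103 above 0, and summed to 969, 1015 and 1012 CPM in WT and 1242, 1245, 1190 and 1089 CPM in mutant libraries. RLTR31M has 85.7% of its reads in this window, in 10 tested loci, and there it stood at 122, 120 and 130 CPM in WT and at 163, 161, 148 and 128 CPM in mutant libraries, which overlap. Over all its loci the log2 fold change of RLTR31M was 0.26, with an adjusted p of 0.208. Speer4a, a protein-coding gene inside the array that was looked at after the values were seen, was at 2.33, 2.51 and 2.37 FPKM in WT and 3.19, 3.33, 2.16 and 2.76 FPKM in mutant libraries (limma adjusted p = 0.492).

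The single RLTR19 locus with the most reads lay outside the array, at chr11:5818092-5818599 on the minus strand, and held 29.4% of the RLTR19 reads. It contains Gm11966, which GENCODE M21 lists as a processed pseudogene on the same strand with an exon at chr11:5818497-5818583. The 87 bases of that exon are shown because reads of the LTR and of the pseudogene cannot be told apart here, and they are printed 5′ to 3′ without capitals.
RLTR19 in an exon of Gm11966: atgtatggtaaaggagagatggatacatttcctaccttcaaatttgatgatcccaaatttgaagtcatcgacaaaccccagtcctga
The locus stood at 142, 204 and 197 CPM in WT and at 221, 234, 257 and 268 CPM in mutant libraries, without overlap, and its log2 fold change was 0.44. This locus too was singled out after its values were seen. The other 81 tested RLTR19 loci outside the array summed to 124.6, 134 and 125 CPM in WT and to 117, 124, 132 and 138 CPM in mutant libraries. Those means were 128 ± 5.47 and 128 ± 9.20 CPM (SD), with 37 loci above 0 and 44 below it and a median log2 fold change of -0.08. With the array left out, an alternative chosen after seeing the data, RLTR19 had a log2 fold change of 0.26 and an adjusted p of 0.215.

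All RLTR loci together did not pass the test. Their sum was 29346, 31400 and 29259 CPM in WT and 31264, 30690, 33150 and 31960 CPM in mutant libraries, and the groups overlap. The log2 fold change was 0.08 ± 0.04 (SE), with an exact permutation p of 0.143 and an edgeR p of 0.0756. LTR names alone (log2 fold change 0.08, exact permutation p = 0.143) and internal names alone (0.06, exact permutation p = 0.286) also had overlapping groups. Without the library labelled WT 3 the log2 fold change of the whole sum was 0.05.

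Most RLTR loci lie between genes, but most RLTR reads do not. Of the 153323 loci 63.7% lay outside annotated genes, 34.0% in introns and 2.38% touched an exon. Loci that touch an exon took 36.4%, 40.5% and 38.9% of the RLTR reads in WT and 39.0%, 39.1%, 41.3% and 39.6% in mutant libraries. Intronic loci took 48.5%, 44.4% and 47.0% in WT and 44.4%, 45.8%, 42.7% and 43.6% in mutant libraries, and intergenic loci took 15.1%, 15.1% and 14.1% against 16.6%, 15.1%, 16.0% and 16.8%. The counting error was at most 0.30 percentage points. The intergenic share was 1.38 percentage points higher in mutant testes, with an exact permutation p of 0.0571. Its groups did not overlap, but WT 1 at 15.105% and mutant 2 at 15.109% lay closer than the counting error. The exonic (1.16 points, p = 0.400, exact) and intronic shares (-2.54 points, p = 0.114, exact) overlapped. For all LINE, SINE and LTR reads the intergenic share was likewise higher, by 1.23 points with an exact permutation p of 0.0571. Summed over the tested loci alone, the RLTR difference was 0.08 points (exact permutation p = 0.914). Over all RLTR loci but without the library labelled WT 3, the difference of 1.38 points became 1.04 points (exact permutation p = 0.133, where 0.0667 is the smallest possible).

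**Figure D4:**
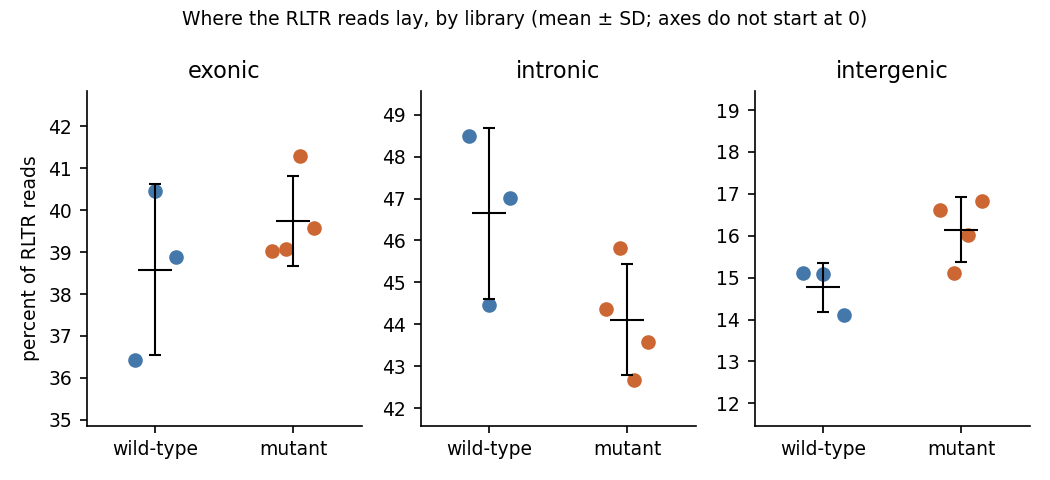
Percent of RLTR reads in exonic, intronic and intergenic loci for each WT (blue) and mutant (orange) library, with mean and SD; the axes do not start at 0. The intergenic share lies at 14.1% to 15.1% in WT and at 15.1% to 16.8% in mutant libraries.

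Names summed over intergenic loci alone showed more change. Here 15 of 131 RLTR names passed the test (11.5%), all higher in mutant testes, beside 22.3% of all 703 names tested in this way. The median log2 fold change was 0.22 for the RLTR names and 0.27 for all names. RLTR19 stood at 332, 346 and 334 CPM in WT and at 491, 456, 445 and 427 CPM in mutant libraries (0.43, adjusted p = 0.0221). RLTR17B_Mm had 164, 157 and 151 CPM against 192, 171, 216 and 212 CPM (0.33, adjusted p = 0.0826). RLTR11A had 132, 142 and 134 CPM against 169, 150, 180 and 163 CPM (0.28, adjusted p = 0.0981). The others, chosen after their values were seen, were RLTR25A, RLTR20C2_MM, RLTR20A4, RLTR12H, RLTR13C2, RLTR18, RLTR13G, RLTR51A_Mm, RLTR20B2, RLTR19A, RLTR9D2 and RLTR26, with log2 fold changes from 0.37 to 0.87. RLTR26, the highest of these, rested on 3.45 ± 0.274 CPM in WT and 6.37 ± 1.76 CPM in mutant libraries (SD). The RLTR share of called names and the RLTR median both lay under those of all names.

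Single RLTR loci were tested next, each as its own row. Of 12176 tested loci 30 had an edgeR adjusted p under 0.1 (0.246%, beside 0.0846% of all 464695 tested loci). The mutant level was lower at 22 of them (0.181%, beside 0.0628%) and higher at 8 (0.0657%, beside 0.0217%). The 30 loci belong to 22 names in 14 series. By location, 20 of 2141 intergenic loci were called (0.934%, beside 0.324% of all intergenic loci), 7 of 1245 exonic loci (0.562%, beside 0.295%) and 3 of 8790 intronic loci (0.0341%, beside 0.0299%). Over all tested RLTR loci the median log2 fold change was -0.01 and that of all loci was 0.00, with 6031 RLTR loci above 0 and 6145 below it. An unadjusted p under 0.05 was reached by 694 RLTR loci (5.70%, beside 4.79% of all loci). The last locus inside the threshold had an adjusted p of 0.0910 and the next outside it 0.102.

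These calls rested on few reads and often on 1 library. Tested loci had a median of 2.57 reads per library, and 13 of the 30 called loci had a mean under 10. The groups did not overlap at 8 of the 30, 6 lower and 2 higher in mutant testes, whereas mutant libraries lay under every WT library at 2.82% and above every WT library at 2.83% of the tested RLTR loci (3.03% and 2.97% of all loci). The number of calls was 12 without WT 2, 15 without mutant 2, 16 without mutant 4 and 45 without the library labelled WT 3, of which 41 were lower. Over all tested loci 393 were called with every library, and 139, 273, 298 and 659 in the same fits, in that order. DESeq2 called 1 of the 30, and 16 of them had an unadjusted DESeq2 p under 0.05. For 13 of the 30 DESeq2 gave no adjusted p, so it could not call them.

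The clearest fall was at RLTR28 in an intron of Tdh, which encodes the threonine-degrading enzyme threonine dehydrogenase. This locus, chr14:63493001-63493481, had 30, 8 and 29 reads in WT and 3, 1, 4 and 1 reads in mutant libraries. All mutant libraries lay under all WT libraries, the log2 fold change was -2.96 ± 0.46 (SE) and the adjusted p was 5.89e-07. It was called in every fit that left out 1 library, with adjusted p up to 0.000556, and it is the RLTR locus that DESeq2 called too (adjusted p = 0.0986). Tdh itself was at 11.1, 3.97 and 9.04 FPKM in WT and at 0.797, 1.09, 1.63 and 1.58 FPKM in mutant libraries, with a log2 fold change of -2.19 on the log2(FPKM + 0.5) scale and a limma adjusted p of 0.112. Without WT 2 the adjusted p of Tdh was 0.0177 and without the library labelled WT 3 it was 0.0260. Reads were not kept by strand and unspliced RNA was not removed, so LTR transcripts and unspliced Tdh RNA cannot be told apart.

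RLTR12C at chr8:25847399-25847861 carried the most reads among the called loci. It overlaps the first exon, the UTR and a transcript start of Ash2l, a subunit of the complexes that methylate histone H3 at lysine 4. The locus had 419, 285 and 268 reads in WT and 202, 153, 190 and 138 reads in mutant libraries, or 79.8 ± 11.7 against 50.8 ± 9.73 CPM (SD). The log2 fold change of -0.65 ± 0.16 (SE) had an adjusted p of 0.0630, and with a library left out the adjusted p ran from 0.00458 to 0.571, called in 2 of 7 fits. Ash2l was at 81.7, 64.8 and 58.4 FPKM in WT and 55.9, 49.6, 53.9 and 45.0 FPKM in mutant libraries, a log2 fold change of -0.41 with a limma adjusted p of 0.191.

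RLTR17 at chr4:108179846-108180122 lies 538 bases from Echdc2, outside annotated genes. It had 32, 37 and 21 reads in WT and 8, 5, 12 and 6 reads in mutant libraries, which do not overlap. It fell by 1.69 ± 0.33 (SE) on the log2 scale (adjusted p = 0.000848) and was called in 6 of 7 fits, with 0.357 without WT 2. RLTR16B_MM at chr4:154655624-154656272, whose bases form the Gm13110 window above, had 33, 12 and 12 reads against 5, 4, 5 and 4. It fell by 1.77 ± 0.41 on the log2 scale (adjusted p = 0.0292), and the call was lost without WT 1, mutant 1, mutant 2 or mutant 4.

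The remaining falls without overlap had very few reads. RLTR14 at chr10:3256653-3257000, in a UTR exon of H60c, a ligand of the NKG2D receptor of natural killer cells, had 7, 7 and 2 reads in WT and none in any mutant library. Against a floor of 3 reads over the mutant group it was at least 5.94-fold lower in mutant testes (adjusted p = 0.0427), and it was called in 1 of 7 fits with a library left out. H60c was listed at 0.296, 0.163 and 0.0724 FPKM in WT and at 0.0224, 0.0244, 0.0218 and 0.0437 FPKM in mutant libraries, under the filter of the gene test. RLTR16 at chr19:29123942-29124414, in an intron of Rcl1, a gene for an rRNA processing factor, had 14, 2 and 7 reads against 2, 0, 0 and 0. The ratio of WT to mutant was 12.8 (95% exact counting interval 3.16 to 112), with an adjusted p of 0.0630 that was past the threshold in 2 of 7 fits. Rcl1 was at 30.6, 23.2 and 23.7 FPKM in WT and 20.3, 19.3, 21.5 and 19.5 FPKM in mutant libraries, a log2 fold change of -0.34 with a limma adjusted p of 0.188.

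Both rises without overlap were intergenic. RLTR21 at chr7:102472768-102474067, 2512 bases from the olfactory receptor gene Olfr543, had 10, 2 and 9 reads in WT and 53, 43, 9 and 14 reads in mutant libraries. In CPM these were 2.14, 0.581 and 2.25 against 15.1, 12.8, 2.85 and 4.04, so that mutant 3 and 4 lay closer to WT than to mutant 1 and 2. It rose by 2.33 ± 0.34 (SE) on the log2 scale (adjusted p = 5.79e-08), called in all 7 fits with a library left out, while the exact permutation test on the means gave p = 0.143. RLTR19 at chr5:26059379-26059890, a minus-strand copy of the array 798 bases from Gm7347, had 42, 21 and 34 reads in WT and 66, 49, 37 and 51 in mutant libraries. These were 6.10 to 8.99 CPM in WT and 11.7 to 18.8 CPM in mutant libraries, its log2 fold change 0.92 ± 0.23 and its adjusted p 0.0909, and it was called in 1 of 7 fits.

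**Figure D5:**
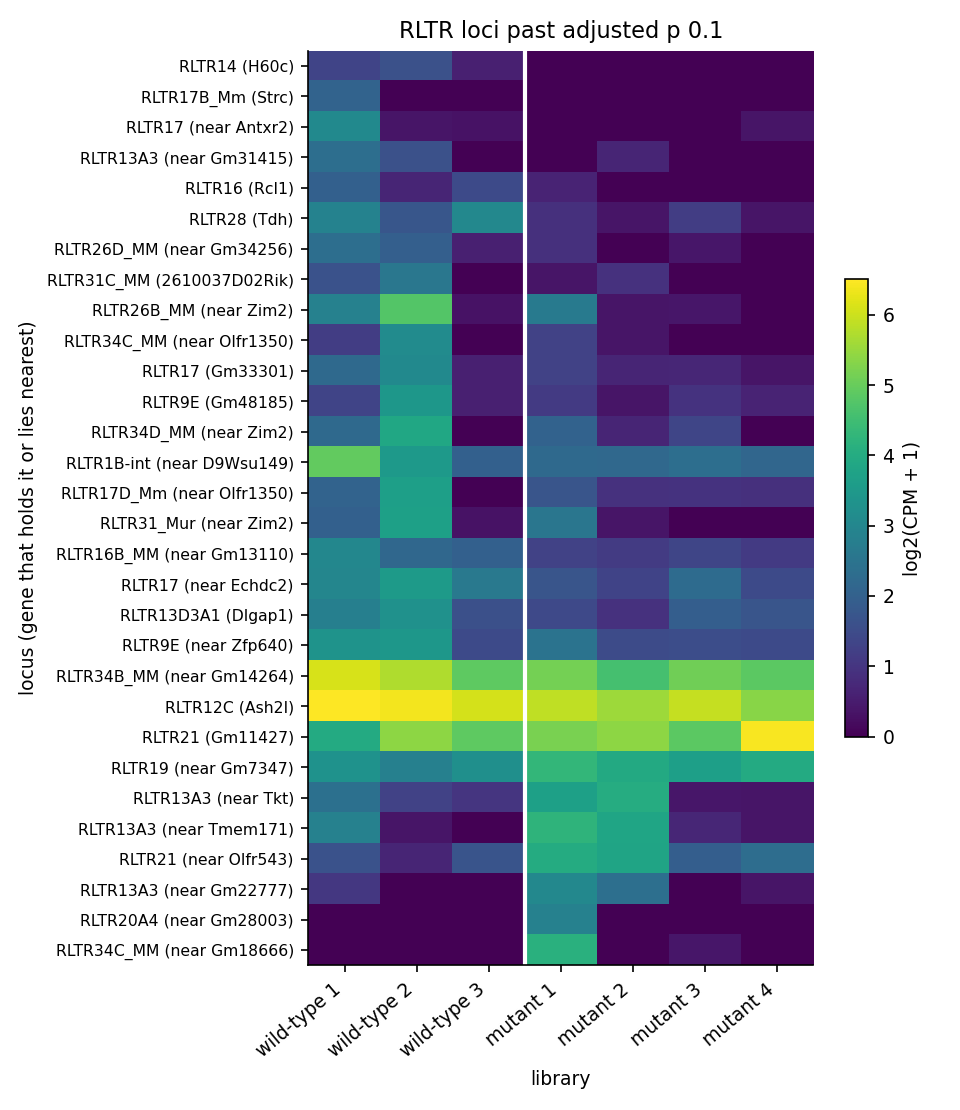
Level of the 30 called RLTR loci in each library as log2(CPM + 1), ordered by log2 fold change from the largest fall at the top to the largest rise at the bottom; each row names the gene that holds the locus or lies nearest. Many rows are bright in WT 1 and WT 2 and dark in WT 3, and the lowest rows are bright in mutant 1 or mutant 1 and 2.

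The other 22 called loci overlapped between the groups, and those named here were chosen after their values were seen. At Gm33301 the RLTR17 locus of the window above had 17, 26 and 2 reads in WT and 5, 2, 2 and 1 in mutant libraries (log2 fold change -2.30, adjusted p = 0.00791). At Gm40003, a RefSeq gene, the RLTR34B_MM locus had 316, 178 and 114 reads against 120, 77, 104 and 98 (-0.74, adjusted p = 0.0292). RLTR1B-int at chr9:57477642-57480829, the 1 internal locus called, had 138, 36 and 12 reads in WT and 13, 12, 13 and 12 reads in mutant libraries, and its call was lost without WT 1 (-1.98, adjusted p = 5.27e-10 with all libraries).

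A cluster of 5 called loci lay within chr7:6574374-6636166, between Olfr1350 and Zim2, with 1 locus each of RLTR17D_Mm, RLTR34C_MM, RLTR26B_MM, RLTR31_Mur and RLTR34D_MM. Together they had 81, 245 and 2 reads in WT and 60, 8, 9 and 3 reads in mutant libraries. WT 2 was highest, the library labelled WT 3 was as low as the mutants, and mutant 1 was close to WT 1 at 17.1 against 17.3 CPM. The exact permutation test on their sum gave p = 0.343, and all 5 calls were lost without WT 2.

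RLTR13A3 was called 4 times, with 3 rises and 1 fall. The 3 rises, at chr14:30576892-30577752, chr13:98670882-98671858 and chr13:56949261-56950235, summed to 54, 6 and 4 reads in WT and to 129, 109, 3 and 3 reads in mutant libraries, so that WT 1, mutant 1 and mutant 2 were high and the other 4 libraries low (exact permutation p = 0.429). The fall, at chr3:49108426-49108954, had 19, 7 and 0 reads against 0, 2, 0 and 0. Several calls rested on 1 library altogether. RLTR34C_MM at chr1:93917087-93917580 had 58 reads in mutant 1 and 1 read in mutant 3, with 0 in the other libraries. RLTR20A4 at chr16:93135564-93135620 had 22 reads in mutant 1 and none elsewhere. RLTR17B_Mm at chr2:121372731-121373012, in an exon of Strc, the gene of the inner ear protein stereocilin, had 15 reads in WT 1 and none elsewhere, and Strc was at 1.92 FPKM in WT 1 and at 0.0131 to 0.0287 FPKM in the other 6 libraries. RLTR17 at chr5:97838935-97839539 had 35 reads in WT 1 and at most 1 in any other library.

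The 5 RLTR loci with the most reads lay inside annotated genes, 4 in exons and 1 in an intron, and did not pass the test. RLTR20C1_MM at chr2:163625173-163625260, in a UTR exon of Serinc3, had 1741, 1887 and 1977 reads in WT and 2198, 1870, 1951 and 2111 in mutant libraries. In CPM the groups did not overlap (471 ± 89.9 against 603 ± 31.5, SD), and the log2 fold change was 0.35 (adjusted p = 0.768). Serinc3 was at 178, 204 and 211 FPKM in WT and 230, 204, 207 and 224 FPKM in mutant libraries (limma adjusted p = 0.435). RLTR19-int at chr9:123689318-123689427, in an exon of Gm10052 near Ccr9, stood at 259 ± 15.6 and 258 ± 34.4 CPM (SD). RLTR20A4 at chr1:171138636-171138786, in an exon of Sdhc, a subunit of succinate dehydrogenase, stood at 243 ± 26.8 and 256 ± 33.5 CPM, with Sdhc at 140 to 148 FPKM in WT and 130 to 149 FPKM in mutant libraries. RLTR19-int at chr7:75770710-75772202, which holds a start of AU020206, had 208 ± 22.8 and 238 ± 6.77 CPM, and RLTR25A at chr6:140747211-140747463, in an intron of Gm11077, had 181 to 227 CPM in WT and 212 to 248 CPM in mutant libraries. Adjusted p ran from 0.977 to 0.993 over these 4 loci.

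More intronic RLTR loci ran against their host gene than along it, as did intronic repeats of all kinds. Of intronic RLTR loci with 1 orientation 29699 ran opposite to their host gene and 20516 along it (59.1% opposite, beside 58.8% of all intronic repeat loci), and among the tested ones 5635 ran opposite and 2871 along it (66.2% opposite, beside 59.8% of all tested intronic loci). An annotated GENCODE transcript start lay in 463 RLTR loci, of which 136 were tested. Of these 59 had a log2 fold change above 0 and 77 below it, with a median of -0.14 beside -0.01 for all tested RLTR loci and 0.03 for the 3000 tested repeat loci of any kind that hold a start. The 2 called, at Ash2l and Gm33301, stand beside 13 of those 3000 (0.433%).

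The 33 genes chosen for silencing of retrotransposons, among them Trim28, Setdb1, Zfp809, Dnmt1, Uhrf1 and the piRNA factors Piwil2, Piwil4 and Mael, were all in the FPKM table and passed its filter. None passed the limma test at an adjusted p of 0.05, as 1 of 13988 genes did (0.00715%). An unadjusted p under 0.05 was reached by 12 of the 33 (36.4%), 11 lower and 1 higher (Uhrf1) in mutant testes, and by 17.0% of all genes, with 8.79% of all genes lower. Log2 fold changes were below 0 for 29 and above 0 for 4, with a median of -0.10 beside 0.01 for all genes. The list holds Dnmt3l, Morc1, Piwil2, Piwil4 and Mael, which the authors reported as reduced in these same data. Its counts beside those of all genes are therefore a description with no independent test. Apart from these libraries, the authors measured select reduced genes by qPCR. They also found Dnmt3l, Piwil4 and Mael higher by qPCR in testes where Glis3 was induced early. Without the library labelled WT 3 the genes Mael (-2.31), Piwil2 (-1.59), Tex19.1 (-1.02), Mphosph8 (-0.69) and Kdm1a (-0.38) passed, all lower in mutant testes, with limma adjusted p from 0.00643 to 0.0463. These 5 of 33 genes (15.2%) stand beside 722 of 14019 genes (5.15%) called in the same fit. The library labelled WT 3 was singled out because its Glis3 and germ cell marker levels lay in the mutant range. Leaving it out can widen differences at germ cell genes, so these calls are a description with no independent test.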

How the data were processed

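RNA-Seq libraries of E14.5 whole testes were used, 3 labelled WT and 4 labelled Glis3 mutant, each from 1 pair of testes of 1 embryo. The authors aligned unstranded reads to mm10 with TopHat and deposited counts of uniquely mapped reads per RepeatMasker LINE, SINE and LTR locus (HTSeq-count), not normalized, and FPKM per RefSeq gene from Cuffquant and Cuffnorm. The submitters' processing notes name TopHat2 2.0.12. In the headers of both tables a tab is missing between WT_rep3 and Mutant_rep1, so columns were taken by their position. Unique mapping leaves out reads that several copies share, which lowers the counts of young, near-identical repeats. Every column of sample values was used (0 left out).

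Loci that averaged 1 read or more over the libraries went into a two-sided edgeR 4.0.16 quasi-likelihood fit with TMM scaling, with Benjamini-Hochberg adjustment over all 464695 tested loci and a threshold of 0.1. Counts summed per name (mean of at least 10 reads) were tested likewise over 831 names keeping the library sizes scaled for loci, from which CPM were also computed. Genes averaging 0.5 FPKM or more were tested with limma 3.58.1 on log2(FPKM + 0.5), with a threshold of 0.05. Single values were compared with a two-sided exact permutation test over the 35 splits of 7 libraries (smallest p 0.0286). Loci were placed on GENCODE M21 genes (GRCm38) with bedtools 2.31.1: exonic if any base lies in an exon, otherwise intronic or intergenic. Floors were 3 reads over a group and intervals 95%. The tests were tried on simulated data, with the same dispersion for every locus. Changes were planted only at loci averaging 10 reads or more, so the trial does not cover loci with fewer reads.

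Named were the RLTR names past the threshold and the 10 with the highest mean CPM, the called loci without overlap between groups (up to 6 in each direction), the 5 loci with the highest mean CPM and their host genes. RLTR members, gene lists and tests were chosen with earlier results of these data known. Alternatives were DESeq2 1.42.0, its size factors, library size alone, other filters, thresholds and pseudocounts, other sets of loci summed, a replicate block and each library left out.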

Additional observations from a re-analysis of the deposited data

Results flagged for a closer look

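Within the 4 mutant libraries, 11 of 61 values examined had 1 library far from the other 3, by Dixon's criterion at the 95% level. Its chance rate of about 1 in 20 is for normally distributed values. Low counts at loci picked because they were called need not follow that rate, so no excess is read from the 11. Mutant 1 was the high library in 7 of the 11. It stood at 16.5 CPM for RLTR34C_MM on chromosome 1, where the next mutant library had 0.317 CPM, and at 6.27 CPM for RLTR20A4 on chromosome 16, where the others had 0. In the chromosome 7 cluster mutant 1 stood at 2.28 CPM for RLTR17D_Mm (next 0.951), 5.42 CPM for RLTR26B_MM (next 0.317) and 4.85 CPM for RLTR31_Mur (next 0.298). It also stood at 4.56 CPM for RLTR9E near Zfp640 (next 1.90) and at 0.570 CPM for RLTR16 in Rcl1, a value of 2 reads beside 0 in the others. Mutant 2 was high for the falling RLTR13A3 locus at 0.595 CPM, also 2 reads beside 0. Mutant 3 was high for the name RLTR11A, at 801 CPM with the next library at 735 CPM. Mutant 4 was high for RLTR17 near Antxr2 at 0.288 CPM, a single read beside 0, and for H60c at 0.0437 FPKM (next 0.0244). Several of these are values of 1 or 2 reads. The WT group has 3 libraries and was not examined in this way.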

How the results depend on the processing

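The count of 30 called RLTR loci was 31 with DESeq2 size factors, 30 with library size alone, 23 without a filter and 24 at an adjusted p of 0.05. It was 1 with DESeq2, 1 with a mean of at least 10 reads and 13 with the replicate block. Over all tested loci the count of 393 was 408, 424, 284, 305, 15, 17 and 217 in the same settings, in that order. With 1 library left out the RLTR count ran from 12 to 45 and that of all loci from 139 to 659. The share of called RLTR loci that were lower in mutant testes, 73.3%, was 46.2% with the block and from 43.8% to 91.1% with a library left out. The count of 1 called RLTR name was 4 with DESeq2 (2.84%, beside 5.54% of all names), 15 over intergenic loci alone (11.5%, beside 22.3%), 0 with the replicate block (RLTR19 adjusted p = 0.406, 10 RLTR names at an unadjusted p under 0.05) and 0 without the RLTR19 loci of the array, and ran from 0 to 4 with a library left out. RLTR19 kept its direction in all 16 alternatives, from 0.26 to 0.43, and its call in 13 of them. The block takes no contrast from mutant 4, whose number no WT library has. The deviations of same-numbered libraries correlated from -0.08 to 0.03, and 0 of 3 WT libraries correlated best with their own number. With 3 such pairs this cannot decide whether same-numbered libraries belong together. Calls lost under the block are no measure of effect size, and why they were lost was not tested. Called silencing genes ran from 0 to 5 and called host genes from 0 to 1 (Tdh) with a library left out. Values near 0 changed sign: RLTR19-int near Ccr9 (-0.00 with all libraries) was 0.0255 with the block and from -0.115 to 0.0237 with a library left out, the name RLTR15 was -0.0016 over the tested loci alone, and Sdhc was 0.0121 with the block and from -0.0532 to 0.0121 with a library left out. The causes were not tested. The sum of all RLTR reads and the shares by location kept their direction and stayed short of the threshold in all alternatives, whereas the sum over LTR names had an edgeR p of 0.0473 without WT 2. Tested loci had a median of 2.57 reads per library, and this depth limits the precision of single loci.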
